A study of Mus musculus with 16 samples.

Results

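DNA damage repair genes were followed as a list of 37 genes, of 21887 protein-coding genes in the annotation, chosen by name for their roles in DNA repair. Their chromatin was read from ATAC-seq, which tags accessible DNA with a transposase, in mouse prostate organoids. Peaks from the 16 libraries were joined wherever they overlapped by 1 bp or more, which gave 86616 merged regions, and a region was counted for a member when that gene had the nearest protein-coding gene body within 100 kb in mm10. This gave 219 regions, of which 201 were called in 2 or more libraries, out of 80352 such regions in the whole series. A region is called in a library when that library's own peak list overlaps it. The 201 regions lay at 34 members. No region was assigned to Brca1, Atm or Fancd2.

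The organoids were labelled Control or SPOPmut, the second being mutant for SPOP, and all 16 libraries carry the label sgNT. Each genotype received 10 nM dihydrotestosterone (DHT), an androgen, or the solvent ethanol (EtOH) for 24 h in organoid medium without mEGF, which gave 4 groups of 4 libraries named Control EtOH, Control DHT, SPOPmut EtOH and SPOPmut DHT. The labels used here do not name the SPOP mutation, what drives it, the mouse strain or age, or whether a genotype is 1 organoid line. Nor do they tell whether the 4 libraries of a group are separate cultures or animals, and the p-values therefore reflect the spread among the libraries at hand, which may be technical.

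Double-strand breaks are repaired by homologous recombination, which copies an intact template with BRCA1, BRCA2 and PALB2, or by end joining, in which the Ku dimer (Xrcc5 and Xrcc6), DNA-PKcs (Prkdc), XRCC4, XLF (Nhej1) and LIG4 join ends directly. The MRE11A, RAD50 and NBN complex and the kinases ATM and ATR sense breaks, while TRP53BP1 and RIF1 protect ends from resection, the step that commits a break to recombination. SPOP brings substrates to a CUL3 ubiquitin ligase, its mutations recur in prostate cancer, where they have been associated with genomic instability, and androgen receptor signalling has been linked to repair gene expression in prostate cells. This is background and not a result of these libraries.

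The deposited lists held 57245 to 69644 peaks per library. They hold no read counts, so depth is unknown and list length stands in its place. The lists averaged 61658 peaks in Control and 63795 in SPOPmut (SD 2823 and 3805, n = 8 each). The main counts of called regions per gene were not scaled to list length. In bulk material, fewer cells of a type and less accessible chromatin per cell cannot be told apart. Spop itself averaged 6.5 called regions in both genotypes (exact permutation, adjusted p = 1), which does not check the allele the cells carry. It averaged 6 in EtOH and 7 in DHT libraries (exact permutation, adjusted p = 0.0288). Among marker lists, 3 of 7 tested luminal epithelial genes had more called regions in SPOPmut, where 19.4% of all genes had more and 12.1% fewer (46 to 53 over the list in Control libraries, 52 to 60 in SPOPmut). Of 4 endothelial genes 3 had fewer (22 to 27 in Control, 13 to 18 in SPOPmut), as had 2 of 5 stromal genes (10 to 15 and 6 to 9). Of 4 basal epithelial genes 1 had more and 1 fewer (30 to 40 and 29 to 34), and of 4 immune genes Ptprc had more (5 to 10 and 9 to 12). Of 7 tested proliferation genes E2f8 had more and Mki67 fewer (30 to 35 over the list in Control libraries, 31 to 36 in SPOPmut). The part of these marker differences in the results on genotype was not tested.

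At each of the 30 repair genes with an annotated start to examine, at least 1 start was open in every library. RefSeq promoter windows, taken as 250 bases before to 50 bases after an annotated start in GRCm38.p6 (the assembly of mm10), were found for 30 of the 37 members. All 30 had a window over which a region was called in all 16 libraries, as had 49.6% of 17492 protein-coding genes with such windows. Of 34 windows at these members 33 were called in every library, and the exception was the second annotated start of Rad51c, a homologous recombination gene, which was called in none. Members without an entry were Rad51d, Rad50, Nbn, Rif1, Prkdc, Fancd2 and Xpc. At 6 of these 7 a region within 1 kb of a gene end was called in all 16 libraries, and at Fancd2, the monoubiquitinated component of the Fanconi pathway, such a region was called in 3.

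At 6 members the region at the start was counted for a neighbour, because neighbouring genes share the region. Brca1, the recombination factor that licenses resected ends, shares its start region with Nbr1, and its annotated start lies 152 bp from that of Nbr1. Atm, the kinase activated by double-strand breaks, shares one with Npat, 376 bp away. The same holds for Rad51b with Zfyve26, Xrcc6 with Desi1 and Pms2 with Aimp2, and the end region of Fancd2 was counted for Emc3. In all, 11 of the 30 members with an entry have a start of another gene, in the other orientation, within 1 kb.

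Promoter letters upstream of 5 members are printed 5′ to 3′ on the gene's strand, each as the 250 bases before its annotated start (RefSeq, GRCm38.p6). Brca1 and Atm are shown because no region was assigned to them although their starts are open. Chek2, a checkpoint kinase gene, is shown for its E2F letters, Msh6, a mismatch recognition gene, because an upstream region differed by genotype, and Parp1, the poly(ADP-ribose) polymerase gene, because its counts fell with DHT away from this start. Capitals mark CCAAT (NF-Y), GGGCGG (Sp1) and the E2F letters TTTGGCGC, TTTCCCGC, TTTGGCGG or TTTCCCGG, on either strand.
Brca1, chr11:101551956-101552205, minus strand: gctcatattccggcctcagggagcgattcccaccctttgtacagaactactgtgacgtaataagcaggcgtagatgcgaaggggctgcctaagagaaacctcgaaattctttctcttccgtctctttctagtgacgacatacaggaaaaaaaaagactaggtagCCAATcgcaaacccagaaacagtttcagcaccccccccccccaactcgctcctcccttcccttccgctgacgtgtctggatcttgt
Atm, chr9:53536672-53536921, minus strand: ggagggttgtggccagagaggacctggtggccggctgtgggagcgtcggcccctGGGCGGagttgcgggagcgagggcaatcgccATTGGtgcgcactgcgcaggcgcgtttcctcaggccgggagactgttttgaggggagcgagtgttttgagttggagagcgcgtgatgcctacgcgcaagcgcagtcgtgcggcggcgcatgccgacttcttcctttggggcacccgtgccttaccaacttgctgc
Chek2, chr5:110839733-110839982, plus strand: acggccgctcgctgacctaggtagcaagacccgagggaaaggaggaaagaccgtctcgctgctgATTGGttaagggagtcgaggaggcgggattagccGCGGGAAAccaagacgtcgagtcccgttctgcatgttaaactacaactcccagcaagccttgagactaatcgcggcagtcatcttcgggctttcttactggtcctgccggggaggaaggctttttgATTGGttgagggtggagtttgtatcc
Msh6, chr17:87974800-87975049, plus strand: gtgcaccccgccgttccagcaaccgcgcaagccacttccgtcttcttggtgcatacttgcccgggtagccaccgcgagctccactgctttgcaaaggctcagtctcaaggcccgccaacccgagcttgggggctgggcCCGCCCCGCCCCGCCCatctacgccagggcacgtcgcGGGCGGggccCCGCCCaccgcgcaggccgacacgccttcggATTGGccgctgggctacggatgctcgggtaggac
Parp1, chr1:180568641-180568890, plus strand: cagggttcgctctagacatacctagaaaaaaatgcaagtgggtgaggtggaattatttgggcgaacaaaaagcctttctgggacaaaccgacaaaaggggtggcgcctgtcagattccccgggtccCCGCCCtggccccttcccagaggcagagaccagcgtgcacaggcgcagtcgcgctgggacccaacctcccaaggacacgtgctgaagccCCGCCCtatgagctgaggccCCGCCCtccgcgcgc

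Brca1 holds 1 CCAAT match, Atm 1 CCAAT and 1 GGGCGG match, Chek2 2 CCAAT matches and 1 E2F match, Msh6 1 CCAAT and 5 GGGCGG matches, and Parp1 3 GGGCGG matches. Matches of one motif may overlap each other, as some of the GGGCGG matches of Msh6 do, and no motif searched contains another. Over the full 300-base windows, an E2F match was found at 8 of 30 members (26.7%), namely Bard1, Brca2, Chek1, Chek2, Mdc1, Msh6, Rad51c and Xrcc6, and at 4.71% of all 17492 genes. The match of Msh6 lies outside the bases printed. GGGCGG was found at 22 members (73.3%, against 49.2% of all genes) and CCAAT at 17 (56.7%, against 42.3%). The ETS letters CCGGAAGT were found at 4 (13.3%, against 5.69%) and the NRF1 palindrome at Lig4 alone (3.33%, against 1.47%). The full palindromic androgen receptor site was found at 0 members and at 2 genes in all. These matches are letters in a window and were not tested as binding sites.

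Most start regions ranked high within the peak lists, ranked by the authors' −log10 p (percentile 100 is the strongest peak of a library). The median over the members' promoter windows was 88.1, and no such value over all genes is given here, so it is not set apart from other starts. Median percentiles over the 16 libraries ran from 42.9 at Rad51c to 97.8 at Atm. The start region of Brca1 stood at 92.8, that of Chek2 at 93.6, that of Msh6 at 96.4 and that of Parp1 at 71.7. Brca2, a central recombination gene, stood lower at 48.6, and Chek1, the effector kinase of ATR, at 61.7. All 16 libraries called 109 of the 201 member regions (54.2%), against 48.9% of all regions. Of the 34 that lay at a gene end, within 1 kb, 31 (91.2%) were called in all 16, against 79.1% of all such regions in the series. Inside gene bodies 58 of 122 were called in all 16, and outside them 20 of 45. The median percentile was 83.0 at gene ends, 41.7 inside and 36.6 outside gene bodies.

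**Figure D1:**
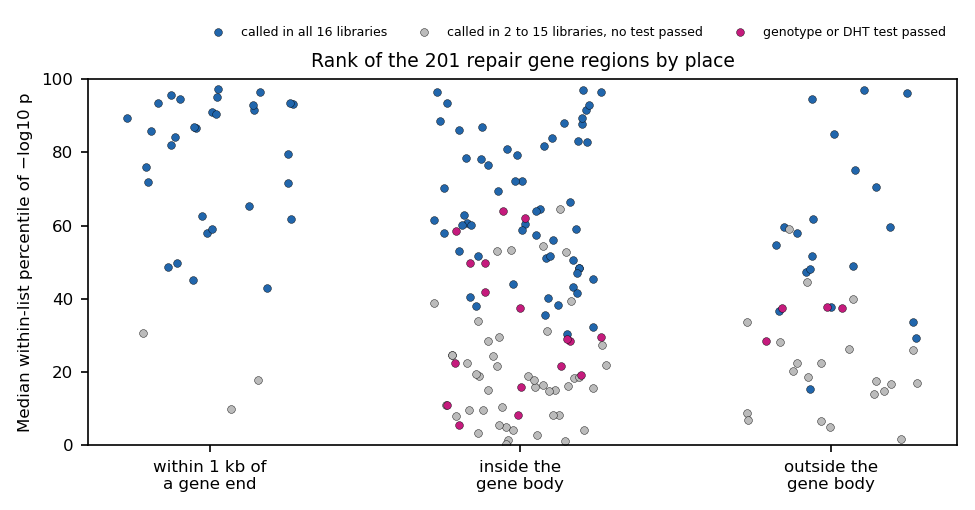
Each point is 1 of the 201 repair gene regions, with its median within-list percentile of −log10 p (over the libraries that called it) on the vertical axis and its place relative to the gene on the horizontal axis, with points spread sideways for legibility. Regions at gene ends sit high (median 83.0) and none is coloured as passing the genotype or DHT test, whereas the 21 that passed lie inside or outside gene bodies at a median of 29.6. A region called in all 16 libraries, as 31 of the 34 at gene ends were, cannot pass either test. The contrast of ranks therefore follows in part from testing calls.

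The share of each library's called regions that lay at the 37 genes was described without a test. It was 0.243, 0.249, 0.242 and 0.243% in the Control EtOH libraries and 0.254, 0.258, 0.250 and 0.251% in Control DHT. In SPOPmut EtOH it was 0.256, 0.259, 0.258 and 0.255%, and in SPOPmut DHT 0.274, 0.275, 0.267 and 0.261%. Group means were 0.244 ± 0.00335, 0.253 ± 0.00354, 0.257 ± 0.00205 and 0.269 ± 0.00652% (SD, n = 4). The SPOPmut share was 1.05 times that of Control in EtOH and 1.06 times in DHT, and the DHT share was 1.04 times that of EtOH in Control and 1.05 times in SPOPmut, with no overlap between the groups in any of these 4 contrasts. Rad51b alone held 0.107, 0.111, 0.108 and 0.121% in the same order. It accounted for 0.00118 of the 0.0126 percentage points between genotypes in EtOH, where its own shares overlapped, and for 0.00937 of the 0.0158 points in DHT. Between treatments it accounted for 0.00443 of 0.00922 points in Control, where its shares overlapped, and for 0.0126 of 0.0124 points in SPOPmut. For the other 36 genes the means were 0.137 ± 0.00110, 0.142 ± 0.00303, 0.149 ± 0.00422 and 0.149 ± 0.00346%. Without Rad51b the genotypes did not overlap in EtOH but did in DHT, and the treatments overlapped in SPOPmut but not in Control. Restricted to regions within 1 kb of a gene end, the genotype difference of the share was -0.000799 and the DHT difference -0.000369 percentage points.

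**Figure D2:**
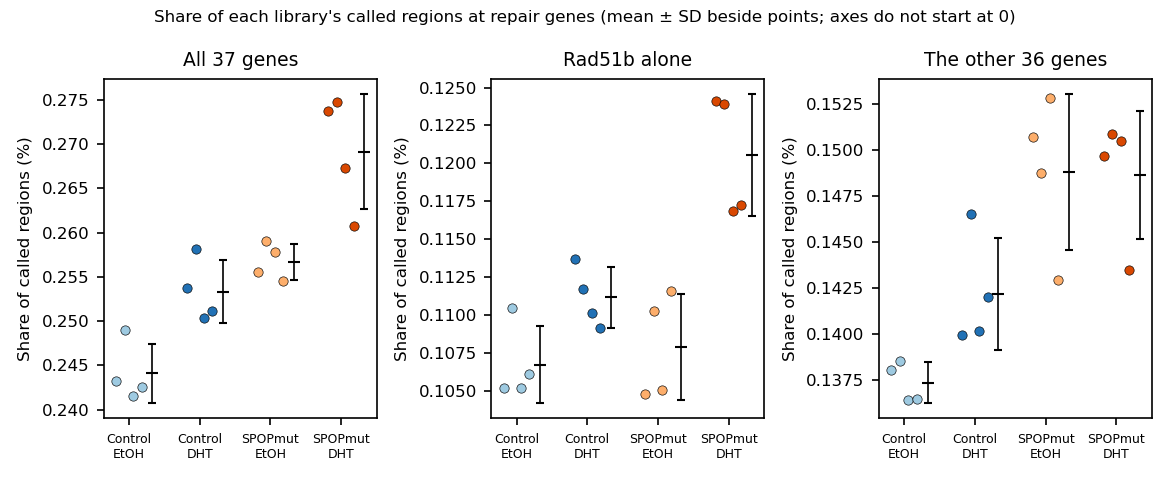
Share of a library's called regions (%) for the 37 genes, for Rad51b alone and for the other 36, by group, with each library as a point and the mean ± SD beside it (n = 4). Axes do not start at 0, and the SPOPmut DHT libraries stand above all others for Rad51b, while without it SPOPmut EtOH and SPOPmut DHT overlap.

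Gene by gene, called regions were counted in each library and compared between genotypes within treatment, and between treatments within genotype. Only genes with at least 2 regions were tested, which kept 24 members. A further 10 members (Rad51c, Rad51d, Rad50, Nbn, Atr, Chek1, Rif1, Xrcc6, Lig4 and Parp2) had 1 region, called in every library, and 3 had none. By genotype 7 of the 24 passed at an adjusted p under 0.05 (29.2%), 6 higher in SPOPmut and 1 lower, where 31.5% of 11212 genes passed (19.4% higher, 12.1% lower), so the members' share was near the background. The median difference was 0.25 regions over the 24 and 0 over all genes. By DHT 5 of the 24 passed (20.8%), 3 higher and 2 lower, where 8.55% of all genes passed (5.41% higher, 3.14% lower), and the median difference was -0.125 regions over the 24 and 0 over all genes. The DHT count moved with the settings, since leaving out replicate 1 or replicate 3 of Control DHT left 3 members and other settings gave 0 to 12. With a correction for the call rate of each chromosome, 8 members were higher and 5 lower by genotype (49.2% of all genes passed), and 6 were higher and 5 lower by DHT (21.0%). The corrections therefore both ended and added calls. Among those added by genotype were Palb2 under the chromosome correction and Mdc1 under both, although each had the same count in all 16 libraries, because what the correction subtracts differs between genotypes. Both corrections also added Xrcc4 (higher in SPOPmut) and Nhej1 (lower) by genotype and Xrcc5 (lower) by DHT, and the chromosome correction added Dclre1c (lower) by DHT.

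**Figure D3:**
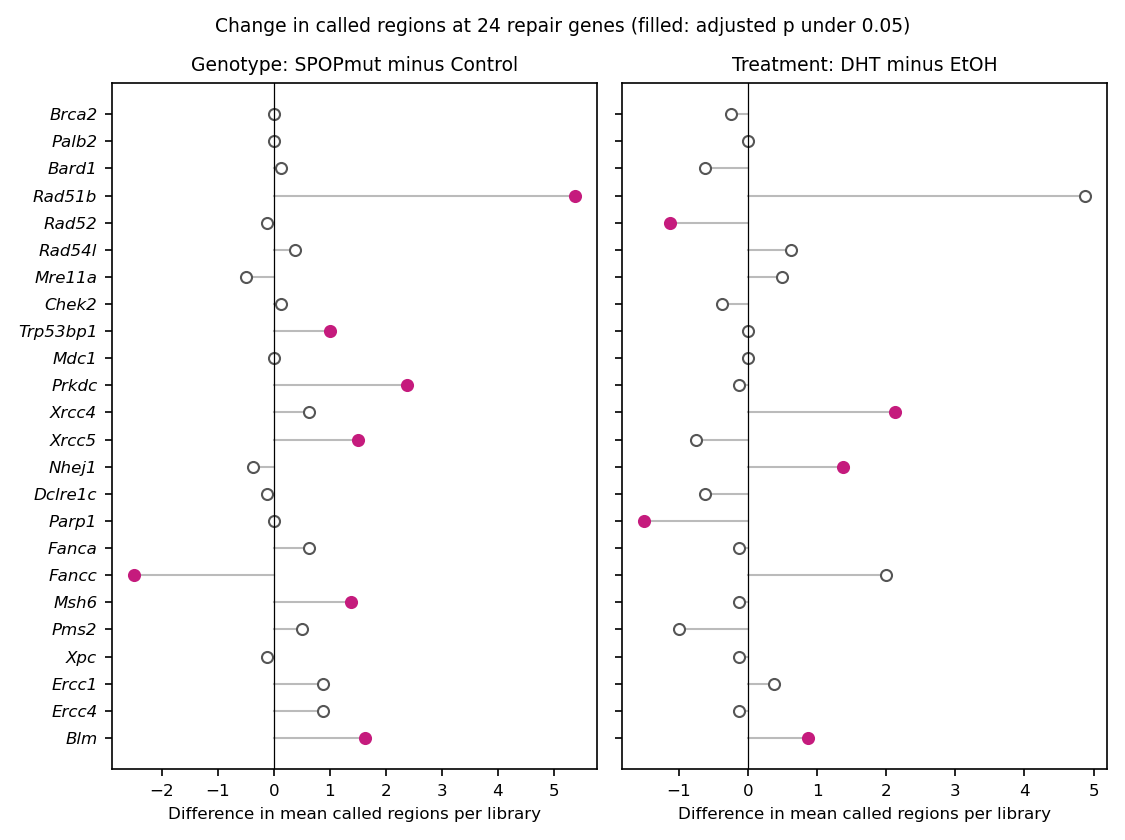
Difference in mean called regions per library for the 24 tested members, SPOPmut minus Control on the left and DHT minus EtOH on the right, with filled points for an adjusted p under 0.05. Rad51b lies farthest right in both panels but passed only by genotype, and Fancc is the only filled point to the left of 0 in the genotype panel.

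Among the homologous recombination genes, Rad51b and Blm had more called regions in SPOPmut and Rad52 fewer with DHT. Rad51b (gene 19363, chr12:79297282-79848260), a homologous recombination gene, held 88 regions, more than any other protein-coding gene, of which 48 were called in all 16 libraries. It had 64, 59, 64 and 63 called regions in Control EtOH, 65, 61, 66 and 63 in Control DHT, 64, 63, 66 and 64 in SPOPmut EtOH and 73, 69, 73 and 76 in SPOPmut DHT. The SPOPmut DHT libraries lay above all 12 others, which overlapped one another. The genotype difference was 5.38 regions (exact permutation, adjusted p = 0.0250), and the DHT difference of 4.88 missed the threshold (exact permutation, adjusted p = 0.0824). Called regions within 5 Mb of Rad51b, without its own, were 8.63% more numerous in SPOPmut. After subtracting what these predict the genotype difference was -0.0669, and after a correction for the chromosome 0.881 (adjusted p = 0.959 and 0.501 by exact permutation). The DHT difference passed under both, at 2.82 with the local and 5.50 with the chromosome correction (adjusted p = 0.0297 and 0.0058 by exact permutation). A 25 kb window (3.25, adjusted p = 0.0668) and lists of equal length (3.38, adjusted p = 0.0741) also ended the call in the exact permutation test, whose adjusted p ran from 0.0031 to 0.959 over 11 other settings.

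Blm (gene 12144, chr7:80454993-80535148), the helicase that resolves recombination intermediates, stepped up through the groups. It had 5 called regions in every Control EtOH library, 6 in every Control DHT library, 7, 7, 7 and 6 in SPOPmut EtOH and 7, 7, 8 and 8 in SPOPmut DHT. Genotypes did not overlap in either treatment, and the difference of 1.62 regions passed (exact permutation, adjusted p = 0.00325), also under all 11 other settings that could test it. With gene ends only, Blm could not be tested. The DHT difference was 0.875 (exact permutation, adjusted p = 0.0477). It was lost without SPOPmut EtOH replicate 4 (adjusted p = 0.0559), SPOPmut DHT replicate 3 (0.0924) or SPOPmut DHT replicate 4 (0.0893), and in 8 of 11 other settings of the exact permutation test. No single region at Blm passed, and the regions named here and elsewhere that did not pass were chosen after their values were seen. A region 61.0 kb downstream of its start (chr7:80473587-80474383) was called in 0 of 4 Control EtOH libraries and all 4 of each other group, and one 21.4 kb upstream (chr7:80556252-80556551) in all 4 SPOPmut DHT libraries only.

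Rad52 (gene 19365, chr6:119901722-119922827), which anneals single strands, had 2, 2, 2 and 3 called regions in Control EtOH, 1, 2, 1 and 2 in Control DHT, 2, 3, 3 and 2 in SPOPmut EtOH and 1 in each SPOPmut DHT library. Its start region was called everywhere, and the fall came from 2 further regions, at median percentiles of 27.3 and 9.82. The DHT difference was -1.12 (exact permutation, adjusted p = 0.0477), and the genotype difference was -0.125 (exact permutation, adjusted p = 1). The DHT call was lost without Control EtOH replicate 4 (adjusted p = 0.0552), Control DHT replicate 1 (0.0663) or Control DHT replicate 3 (0.0670), and in 8 of 12 other settings of the exact permutation test (adjusted p 0.0226 to 0.606).

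The remaining recombination genes did not pass in either comparison without a correction. Brca2 (gene 12190, chr5:150522297-150570147) had 1, 2, 1 and 1 called regions in Control EtOH, 1 in each Control DHT library, 2, 1, 1 and 1 in SPOPmut EtOH and 1 in each SPOPmut DHT library, so its start region alone was called in 14 of 16 libraries. Palb2, the bridge between BRCA1 and BRCA2, had 2 called regions in every library. Bard1, the ubiquitin ligase partner of BRCA1, had 3 or 4 in each library and 3 in every DHT library (DHT difference -0.625, exact permutation, adjusted p = 0.145), and passed by DHT with the local correction (-0.651, adjusted p = 0.0373). Rad54l, a DNA translocase gene, had 2 in all 4 SPOPmut DHT libraries and in 1 Control DHT library, and 1 in each of the others (DHT difference 0.625, exact permutation, adjusted p = 0.0976). It passed by DHT with the chromosome and the local correction (0.64 in both, adjusted p = 0.0370 and 0.0416 by exact permutation), and by genotype with the first (0.44, adjusted p = 0.0449).

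**Figure D4:**
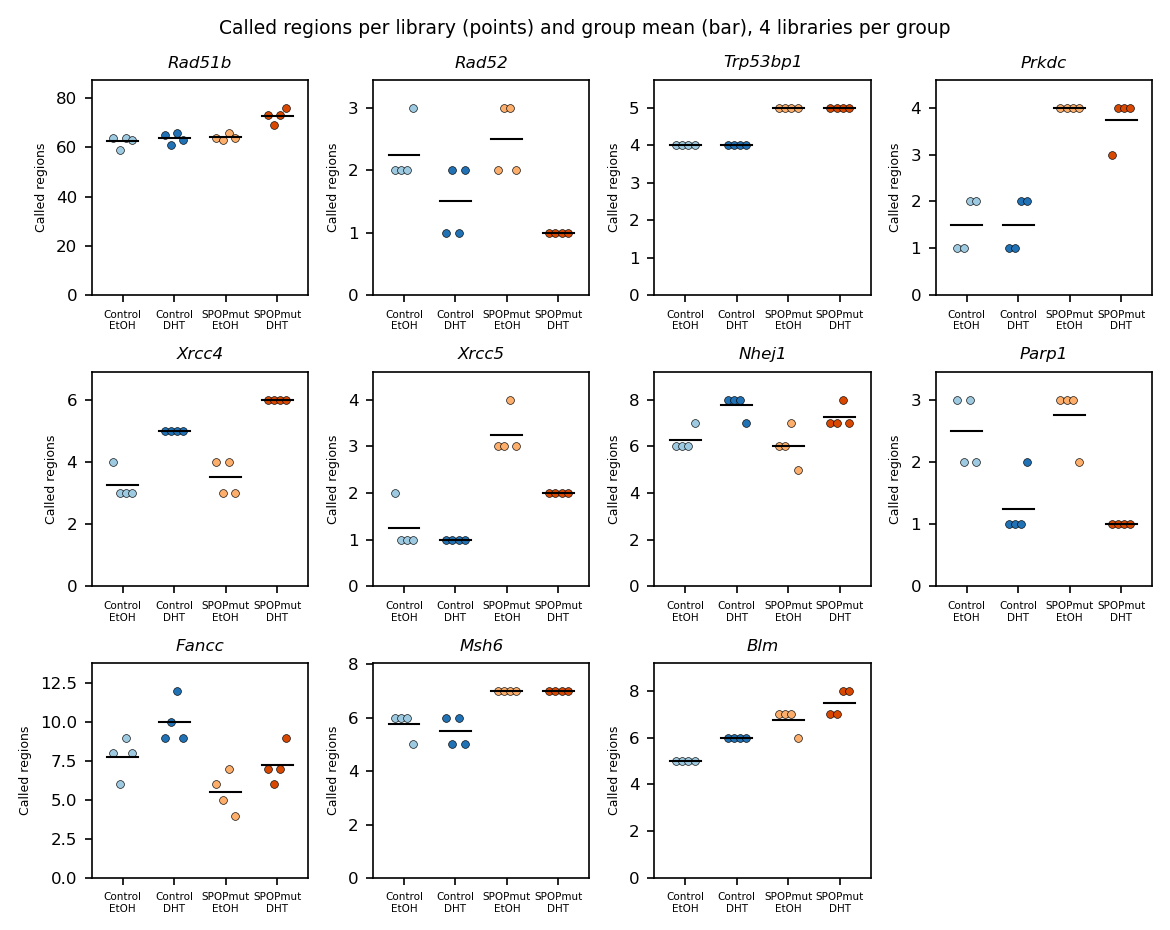
Called regions per library (points) and group mean (bars) for the 11 members that passed by genotype or DHT, with the 4 groups on the horizontal axis and 4 libraries in each. Blm, Trp53bp1, Prkdc, Xrcc5 and Msh6 separate the genotypes within each treatment. Xrcc4 separates DHT from EtOH in both genotypes, and at Rad51b the SPOPmut DHT libraries lie between 69 and 76.

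None of the break sensing and checkpoint kinase genes passed by genotype or DHT without a correction, 2 of 7 being tested. Mre11a (gene 17535, chr9:14784654-14837125), the nuclease of the MRN complex, had 1 called region in every library except the 4 Control DHT libraries, which had 2. The extra region (chr9:14810132-14810467), 25.6 kb downstream of the start, was weak, at a median percentile of 8.08 in the libraries that called it. The genotype difference of -0.5 missed the threshold (exact permutation, adjusted p = 0.0782) and passed with the chromosome and the local correction (-0.605 and -0.609, adjusted p = 0.0034 and 0.0155). Chek2 (gene 50883, chr5:110839800-110874140) had 4, 3, 4 and 4 in Control EtOH, 2, 2, 3 and 3 in Control DHT, 3 in each SPOPmut EtOH library and 4, 2, 4 and 4 in SPOPmut DHT. Rad50, Nbn, Atr and Chek1 (gene 12649, chr9:36708482-36726658) had their 1 region called in all 16 libraries, and Atm (gene 11920, chr9:53437122-53536828) had none assigned.

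Of the chromatin adaptors, Trp53bp1 had 1 more called region in SPOPmut, while Mdc1, which anchors repair factors to phosphorylated histone H2AX, had 3 called regions in every library. Trp53bp1 (gene 27223, chr2:121194835-121296354) had 4 called regions in each Control library and 5 in each SPOPmut library, in EtOH and DHT alike (exact permutation, adjusted p = 0.00325). The added region (chr2:121286472-121286884) lay inside the gene body, 15.3 kb upstream of the nearest start in the table, and was called in each of the 8 SPOPmut libraries and in no Control library (exact stratified test, adjusted p = 0.00961). Chromosome 2 took a share of called regions 19.9% larger in SPOPmut, and the 5 Mb either side of Trp53bp1 held 289 called regions on average in Control and 396 in SPOPmut. With the chromosome correction the difference was 0.0323 (adjusted p = 0.833), with the local correction -0.406 (0.0180) and with the strongest 75% of each list 0.375 (0.655), by exact permutation.

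Of 5 tested non-homologous end joining genes 2 passed by genotype and 2 by DHT, where 31.5% and 8.55% of all genes did, and so few genes allow no comparison of shares. Prkdc (gene 19090, chr16:15637444-15842239), the catalytic subunit of DNA-PK, had 1, 1, 2 and 2 called regions in both Control groups, 4 in each SPOPmut EtOH library and 3, 4, 4 and 4 in SPOPmut DHT. Genotypes did not overlap, and the difference was 2.38 regions (exact permutation, adjusted p = 0.00325). It passed under all 11 other settings that could test it and without any 1 library. With gene ends only, Prkdc could not be tested. Region chr16:15709648-15710079 inside the gene was called in no Control library and in 4 and 3 of the SPOPmut libraries with EtOH and DHT (exact stratified test, adjusted p = 0.0292). Regions chr16:15680262-15680922 and chr16:15684976-15686028 were called in all 8 SPOPmut libraries and in 2 Control libraries each, of EtOH and of DHT in that order (exact stratified test, adjusted p = 0.0695 for both). The region at the low end of the gene was called in every library. Prkdc did not pass by DHT (difference -0.125, exact permutation, adjusted p = 1).

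Xrcc5 (gene 22596, chr1:72307417-72394953), the larger Ku subunit, had 2, 1, 1 and 1 called regions in Control EtOH, 1 in each Control DHT library, 3, 3, 4 and 3 in SPOPmut EtOH and 2 in each SPOPmut DHT library. Genotypes did not overlap within a treatment, and the difference of 1.5 passed (exact permutation, adjusted p = 0.00325). It also passed under all 11 other settings that could test it and without any 1 library. With gene ends only, Xrcc5 could not be tested. A region 5.11 kb beyond the gene body (chr1:72399752-72400373) was called in all 8 SPOPmut libraries and no Control library (exact stratified test, adjusted p = 0.00961). Weak regions, at median percentiles of 10.4 and 4.91, were called in 3 and 2 SPOPmut EtOH libraries. The first of them was also called in 1 Control EtOH library. Xrcc6, the partner of Xrcc5, had 1 region, called in every library.

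Xrcc4 (gene 108138, chr13:89848914-90089608), the scaffold of LIG4, rose with DHT in both genotypes. It had 4, 3, 3 and 3 called regions in Control EtOH, 5 in each Control DHT library, 4, 3, 4 and 3 in SPOPmut EtOH and 6 in each SPOPmut DHT library. Treatments did not overlap, and the difference was 2.12 regions (exact permutation, adjusted p = 0.0119). Region chr13:89918855-89919565 inside the gene was called in all 8 DHT and no EtOH library (exact stratified test, adjusted p = 0.0231). Another at chr13:90005338-90006193 was called in all 8 DHT libraries and in 1 EtOH library (exact stratified test, adjusted p = 0.0717). With the strongest 75% of each list the DHT difference was 1.38 (exact permutation, adjusted p = 0.0858), and over 11 other settings its adjusted p ran from 0.0058 to 0.149.

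Nhej1 (gene 75570, chr1:74967346-75125226), which encodes the XRCC4-like factor, had 6, 6, 6 and 7 called regions in Control EtOH, 8, 8, 8 and 7 in Control DHT, 6, 6, 7 and 5 in SPOPmut EtOH and 7, 7, 8 and 7 in SPOPmut DHT. The treatments touched at 7 in both genotypes, and the difference was 1.38 (exact permutation, adjusted p = 0.0417). The call was lost without Control EtOH replicate 1 or 3 or Control DHT replicate 1, 2 or 3 (adjusted p 0.0529 to 0.0539 by exact permutation) and in 4 of 12 other settings. Region chr1:74962766-74963864, 4.03 kb beyond the gene body, was called in all 8 Control libraries and in 1 SPOPmut library (exact stratified test, adjusted p = 0.0292). Dclre1c, the Artemis nuclease gene, had 1 or 2 called regions per library and 1 in every DHT library (difference -0.625, exact permutation, adjusted p = 0.145).

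Parp1 (gene 11545, chr1:180568891-180600999), which marks strand breaks with poly(ADP-ribose), fell with DHT in both genotypes. It had 3, 2, 3 and 2 called regions in Control EtOH, 1, 1, 1 and 2 in Control DHT, 3, 3, 3 and 2 in SPOPmut EtOH and 1 in each SPOPmut DHT library. EtOH and DHT met at 2 in Control and did not overlap in SPOPmut. The DHT difference was -1.5 (exact permutation, adjusted p = 0.0256), and the genotype difference was 0. Its start region, printed above, was called in all 16 libraries. A region 22.5 kb upstream (chr1:180546196-180546596) was called in 7 of 8 EtOH libraries and 1 of 8 DHT libraries, and one 9.17 kb downstream (chr1:180577921-180578206) in 6 of 8 EtOH libraries and no DHT library. Both were weak, at median percentiles of 20.2 and 18.8 in the libraries that called them. Neither passed alone (exact stratified test, adjusted p = 0.244 and 0.161), and the gene's call was lost with the gene body and 10 kb either side (-0.75, exact permutation, adjusted p = 0.0721) and with the strongest 75% of each list (-0.375, adjusted p = 0.414).

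In the Fanconi pathway, which repairs crosslinks, Fancc (gene 14088, chr13:63301334-63497292), a core complex subunit, was the member with fewer called regions in SPOPmut. It had 8, 6, 9 and 8 in Control EtOH, 9, 10, 12 and 9 in Control DHT, 6, 5, 7 and 4 in SPOPmut EtOH and 7, 6, 7 and 9 in SPOPmut DHT. The genotypes overlapped in both treatments, and the difference was -2.5 (exact permutation, adjusted p = 0.0180). The DHT difference of 2.0 regions missed the threshold (exact permutation, adjusted p = 0.0914), and passed with the chromosome and the local correction (1.99 and 2.15, adjusted p = 0.0116 and 0.0120). Both of the regions that passed by DHT, inside the gene at chr13:63350075-63350989 and chr13:63374981-63375683, were called in all 8 DHT and no EtOH library (exact stratified test, adjusted p = 0.0231 for both). Those lost in SPOPmut were chr13:63308948-63315072, called in all 8 Control and 1 SPOPmut library, and chr13:63318651-63319772, called in all 8 Control and no SPOPmut library (exact stratified test, adjusted p = 0.0292 and 0.00961).

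Both lost Fancc regions also lie inside the overlapping gene Aopep (chr13:62964893-63326096), whose own count averaged 51.2 in Control and 40.5 in SPOPmut (exact permutation, adjusted p = 0.00585). Called regions in the 5 Mb either side of Fancc fell by 20.8% in SPOPmut. After the local correction the Fancc genotype difference was -0.729 (exact permutation, adjusted p = 0.270), after the chromosome correction it was -1.74 (adjusted p = 0.0090), and with a region counted only when peaks cover at least 50% of it the difference was -1.75 (adjusted p = 0.0839). Fanca, another core subunit, had 1 to 4 called regions per library and did not pass by genotype (0.625, exact permutation, adjusted p = 0.274), except with the chromosome and the local correction (0.751 and 0.636, adjusted p = 0.0079 and 0.0383).

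**Figure D5:**
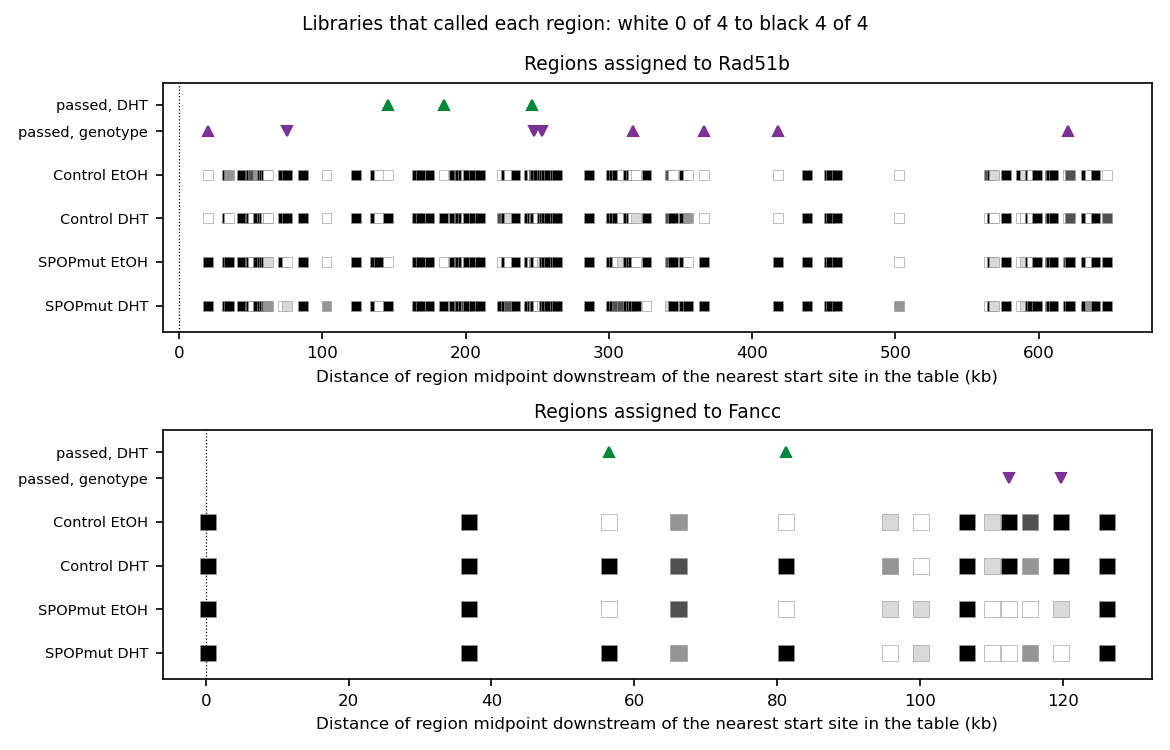
Regions assigned to Rad51b and Fancc by distance downstream of the nearest annotated start (kb), 1 row per group, shaded from white (called in 0 of 4 libraries) to black (4 of 4), with squares wider than the regions they mark. Triangles mark the 11 Rad51b and 4 Fancc regions that passed the genotype (purple, up for higher in SPOPmut) or DHT (green) test.

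Of the mismatch repair genes, Msh6 (gene 17688, chr17:87975050-87990892), which takes part in recognising mispaired bases, had 6, 6, 6 and 5 called regions in Control EtOH, 6, 5, 6 and 5 in Control DHT and 7 in each of the 8 SPOPmut libraries. The genotypes did not overlap, with a difference of 1.38 (exact permutation, adjusted p = 0.00325). Region chr17:87957022-87957628, 17.7 kb upstream of the promoter printed above, was called in each of the 8 SPOPmut libraries and in no Control library (exact stratified test, adjusted p = 0.00961), and the start region was called in all 16. When only the body of Msh6 with 10 kb on each side was counted, the difference was 0. Pms2, an endonuclease gene, had 2, 1, 2 and 2 in Control EtOH, 1, 0, 1 and 0 in Control DHT, 2 in each SPOPmut EtOH library and 1, 1, 2 and 1 in SPOPmut DHT (DHT difference -1.0, exact permutation, adjusted p = 0.0578). It passed by DHT and, higher in SPOPmut, by genotype with both the chromosome and the local correction (adjusted p 0.0090 to 0.0189 by exact permutation).

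None of the 3 nucleotide excision repair genes passed in either comparison. Ercc1 (gene 13870, chr7:19344067-19356524), the partner of the nuclease encoded by Ercc4, had 2 called regions in each Control library, 3, 2, 3 and 2 in SPOPmut EtOH and 3, 2, 4 and 4 in SPOPmut DHT (genotype difference 0.875, exact permutation, adjusted p = 0.0793). Ercc4 itself had 3 to 5 per library (genotype difference 0.875, exact permutation, adjusted p = 0.162). Xpc, the damage sensor of global repair, had 4 in every library but 1, which had 3.

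Region by region, 15 of the 201 member regions passed by genotype (7.46%, 9 higher and 6 lower in SPOPmut), where 6.99% of the 80352 regions passed (3.76% higher, 3.23% lower). By DHT 6 passed (2.99%, all higher), where 1.77% of all regions did (1.51% higher, 0.259% lower). None of the 34 regions within 1 kb of a gene end passed in either comparison, where 3.4% and 0.441% of all such regions did. Of these 34, 31 were called in all 16 libraries and so could not pass a test of calls. Rad51b held 8 of the 15 and 3 of the 6. The first 4 by position among its regions with the smallest p were chr12:79316935-79317679, called in each SPOPmut library and in no Control library, and chr12:79443129-79443649, chr12:79481597-79482336 and chr12:79543324-79544429, each called in all 8 DHT and no EtOH library (exact stratified test, adjusted p = 0.00961 for the first and 0.0231 for the others). They lay 19.96, 146, 185 and 247 kb downstream of the start. The rest of those that passed by genotype at Rad51b comprised 4 higher and 3 lower regions, so both directions occurred within 1 gene.

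Regions called in every library of one group and in none of a second were also counted, 4 libraries against 4 and without an adjusted test. In SPOPmut with EtOH the members gained 13 such regions and lost 7, where 4.84% and 4.36% of the 80352 regions were gained and lost. With DHT they gained 13 and lost 7 (6.41% and 4.22% of all regions). From EtOH to DHT they gained 10 and lost 5 in Control (2.93% and 1.96%) and gained 13 and lost 4 in SPOPmut (4.7% and 1.98%). No such region lay within 1 kb of a gene end, where 31 of 34 regions were called in all 16 libraries and could not be counted as gained or lost. Rad51b held 7 of the 13 gained with DHT in SPOPmut and 4 of the 10 in Control. These comparisons share libraries, and their counts were not tested against each other.

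The DHT effect was compared between genotypes by permuting treatment within each genotype. No member and no gene in all passed (0 of 24 and 0% of 11212), while 2 members, Mre11a and Chek2, and 799 genes had an unadjusted p under 0.05 in the exact permutation test. At Rad51b the DHT effect was larger in SPOPmut by 7.25 regions (exact permutation, p = 0.0665). That test assumes no DHT effect, so it was repeated after subtracting the mean DHT effect of both genotypes, with an approximate p because that mean is estimated. Then 1 member passed, Mre11a (difference -1.0, permutation, adjusted p = 0.0089), where 5.11% of all genes did (3.63% higher, 1.48% lower), and Rad51b did not (permutation, adjusted p = 0.127).

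Of a wider list of 121 other repair genes 68 were tested. By genotype 11 were higher and 8 lower in SPOPmut (27.9%, against 31.5% of all genes). With DHT 0 were higher and 4 lower (5.88%, against 8.55% of all genes, of which 5.41% were higher and 3.14% lower). Xrcc2, a recombination gene outside the 37, had 6 called regions in each Control EtOH library, 5, 5, 6 and 5 in Control DHT and 1 in each SPOPmut library (difference -4.62, exact permutation, adjusted p = 0.00325). Rmi1 and Rmi2 encode partners of BLM and moved apart. Rmi1 had 4 to 6 called regions in Control and 2 in each SPOPmut library (-3.38), while Rmi2 had 11 to 13 in Control and 13 to 17 in SPOPmut (3.0), both at an adjusted p of 0.00325 by exact permutation.

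Of the others with the largest differences, Smug1, a uracil glycosylase gene, rose by 3.38 regions and Shld1, a shieldin subunit that acts with TRP53BP1, by 3.12 in SPOPmut (exact permutation, adjusted p = 0.00325 for both). Mgmt, which reverses alkylated guanine, had 0 called regions in each Control library and 2 in each SPOPmut library, and Neil3, a glycosylase gene, 2 in each Control library and 0 in each SPOPmut library. Brip1, a helicase partner of BRCA1, and Abraxas1, a subunit of a BRCA1 complex, each fell by 1.38 (exact permutation, adjusted p = 0.0180 and 0.00325). With DHT the 4 lower genes were Rmi2 and Rad23b, an XPC partner, each by -2.0 regions, Smug1 by -1.62 and Abraxas1 by -1.38 (exact permutation, adjusted p = 0.0206, 0.0119, 0.0321 and 0.0119).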

How the data were processed

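The 37 members, the wider repair list and the marker lists were chosen with earlier results of these data known. Per the submitters' processing notes, mm10, Bowtie2 2.3.4.1, SAMtools 1.8 and Genrich (version not stated) were used, and each library has its own peak list. The −log10 p of each peak was deposited as the authors' peak caller gave it, and it served here for ranks and filters inside each list alone. The signal (area under the significance track) and the score (whole numbers up to 1000) were deposited by the authors too and were not used in any test. The lists hold peaks without read counts, and signal tracks pooled over a group were not used here.

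Peaks were merged over the 16 lists and called regions were counted per gene and library. Where several gene bodies covered a region, the shortest gene was taken, while exons and introns were left aside. For genotype and for DHT a gene was tested by a two-sided exact permutation of labels inside each level of the other factor (4900 arrangements, the smallest p being 0.000408) and a region by an exact two-sided stratified hypergeometric test, with Benjamini-Hochberg adjustment over 11212 genes or 80352 regions. Between 4 and 4 libraries no p can go below 0.0286, and no adjusted call was sought there. Python 3.11.15, NumPy 2.4.6, pandas 2.3.3, SciPy 1.17.1 and Matplotlib 3.10.9 were used, and the tests were checked on simulated data. The chromosome and local corrections subtract what the call rate of the chromosome, or of regions within 5 Mb, predicts for a gene in a library. The rule names with all libraries the members that passed, with Brca1, Brca2, Atm, Parp1, Prkdc and Chek1 always included, and the regions that passed, at most 4 per gene by p and then position. Outside it, Mre11a, Chek2, Rad54l, Pms2, Ercc1 and the regions that did not pass were named after their values were seen. Of the wider list it names the 4 per direction with the largest difference, ties included. Alternatives were the assignment window and rule, gene ends only, all merged regions, list length, a stricter threshold, the overlap, scaling, both corrections, each library left out and a replicate block. Shares without Rad51b, and the block for the difference between DHT effects, were added after seeing the data. Sequences are from RefSeq (GRCm38.p6).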

Additional observations from a re-analysis of the deposited data

Results flagged for a closer look

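In groups of 4 libraries, 96 sets of counts (24 tested members in each of the 4 groups) and the list shares were searched for a library far from the other 3, and 26 values were found. For continuous values chance gives about 1 such group in 20. That rate does not hold for these counts, which are small whole numbers with many ties. A single region called in 1 library of a group is enough, so the number found cannot be set against a rate expected by chance. In Control EtOH the library apart held 2 called regions at Brca2 against 1 (replicate 2), 3 at Chek2 against 4, 1 at Fanca against 2 and 1 at Pms2 against 2 (all replicate 2), 4 at Xrcc4 against 3 and 2 at Xrcc5 against 1 (both replicate 1), and 3 at Rad52 against 2, 7 at Nhej1 against 6, 1 at Dclre1c against 2 and 5 at Msh6 against 6 (all replicate 4). In Control DHT these were 2 at Rad54l against 1 (replicate 2), 7 at Nhej1 against 8 and 2 at Parp1 against 1 (both replicate 4). In SPOPmut EtOH they were 2 at Brca2 against 1 (replicate 1), 3 at Bard1 against 4 and 4 at Ercc4 against 5 (both replicate 2), 4 at Xrcc5 against 3 (replicate 3), and 2 at Parp1 against 3 and 6 at Blm against 7 (both replicate 4). In SPOPmut DHT they were 3 at Prkdc against 4 (replicate 1), 2 at Chek2 against 4 and 3 at Xpc against 4 (both replicate 2), and 8 at Nhej1 against 7, 3 at Fanca against 2 and 2 at Pms2 against 1 (all replicate 3). Chek2 in SPOPmut DHT is the case that differs by more than 1 region. The share of called regions at the 36 genes other than Rad51b was 0.143% in SPOPmut DHT replicate 4, where the nearest of the others stood at 0.150%.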

How the results depend on the processing

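Members called by genotype (7) numbered 0 with gene ends only, where 4 members could be tested, 13 with the chromosome correction and 11 with the local correction (48.5% of all genes), and 7 to 9 when 1 library was left out. Members called by DHT (5) numbered 3 with a 25 kb window, 2 with the gene body and 10 kb either side, 0 with gene ends only, 3 with all merged regions, 2 with the strongest 75% of each list, 2 when genes with 1 region were added, 12 when counts were scaled to the library's called regions (20.6% of all genes), 11 with the chromosome correction, 11 with the local correction (21.5%), and 3 to 6 when 1 library was left out. The difference between DHT effects called 1 member once the mean DHT effect was subtracted and 0 otherwise. The genotype difference of the list share (0.0142 percentage points) was -0.000799 with gene ends only, 0.0277 with the strongest 75% of each list, 0.0342 with regions counted only when at least 50% covered, 0.00999 and 0.0050 with the chromosome and local corrections and 0.00894 without Rad51b. The DHT difference (0.0108) was -0.000369 with gene ends only and 0.00231 without Rad51b. Signs turned for the genotype difference of Rad51b (-0.0669) and Trp53bp1 (-0.406) under the local correction and for the DHT difference of Prkdc with regions at least 50% covered (0.125). Member regions called by genotype stayed between 12 and 17, and by DHT between 5 and 7. The cause of these shifts was not tested, except that fewer genes are tested with gene ends only.

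Whether equal replicate numbers pair libraries across groups could not be settled, because weak correlations do not exclude a shared batch. Replicate 2 had the shortest list in each group (57245 peaks in Control EtOH, 58038 in Control DHT, 60661 in SPOPmut EtOH and 58800 in SPOPmut DHT). Deviations from group means correlated at -0.110 to 0.0973 over 16 pairs of same-numbered libraries. In 6 of the 16 pairs this correlation was higher than those with other numbers. With the replicate block, which allows 256 arrangements and a smallest p of 0.00781, 5 members passed by genotype (Rad51b and Fancc at an exact permutation adjusted p of 0.0633) and 0 by DHT, as did 0 genes in all. It left 0 members for the difference between DHT effects. Depth behind the calls is unknown, and counts of calls cannot show a change within a region that stays called. Percentiles of −log10 p can shift there, which was not tested. At the start of Parp2, called in all 16 libraries, they ran from 90.7 to 96.7 in Control and 78.3 to 88.0 in SPOPmut. At the start of Trp53bp1 they ran from 52.6 to 69.0 in Control and 69.7 to 84.1 in SPOPmut. SPOPmut also ranked higher at Atr (at least 59.8, Control at most 58.2) and at Xrcc6 (at least 88.9, Control at most 87.3). It ranked lower at Xrcc5 (at most 77.4, Control at least 81.6). A narrow gap, also lower, was seen at the first annotated start of Lig4 (at most 95.20, Control at least 95.25). At others, such as Brca2, the genotypes overlapped. These starts were named after their values were seen, and no such comparison over all genes is given here.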

Other observations

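Of the genes that share an open start with a member, 3 were examined. Nbr1, next to Brca1, had 2 called regions in each of the 16 libraries, and Npat, next to Atm, had 1. Zfyve26, next to Rad51b, had 4 called regions in each Control EtOH library and 5 in each library of the other 3 groups.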
